A study of Mus musculus with 2 samples.

Results

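Lcn2, Serpina3n, Steap4, Ggta1, Emp1, Ptx3, Cd109, Tgm1, Tm4sf1 and Sphk1 are genes whose transcripts mark reactive astrocytes, and their levels were compared between dentate gyrus (DG) astrocyte cultures of wild type (WT) mice and of β-arrestin 1 (β-arr1) knockout (KO) mice. They were found by symbol, and all 10 of them were listed in both expression tables, out of 16302 gene symbols listed in either table. Astrocytes of the DG are niche cells of adult neural precursors, and the question of the RNA sequencing was how gene expression differs in such niche astrocytes when β-arr1, a scaffold protein of receptor signaling that can also enter the nucleus, is missing. WT cells came from mice with an intact Arrb1 gene and KO cells from mice without functional Arrb1 in any cell. The labels give the strain of both as C57BL/6, and the methods of the study name C57BL/6J as the strain to which the KO line was backcrossed. Both kinds of cells were taken from adult DG, grown in medium with fetal bovine serum and shaken to remove loosely attached cells, and no further treatment is described for either. The label of each library describes pooled cDNA, and 1 library was sequenced per genotype. There was thus no spread between replicates, and no test of genotype was possible.

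Astrocytes respond to injury, infection and disease by a change of state called reactivity, in which cytokine signals acting through STAT3, NF-κB and AP-1 raise acute phase proteins, cytoskeletal proteins and surface receptors. In mice, transcripts raised after both systemic lipopolysaccharide and ischaemic stroke have been called pan-reactive, those raised mainly after lipopolysaccharide A1, and those raised mainly after stroke A2. Cultured astrocytes kept in serum are known to carry many of these transcripts without any injury. Of the 10 genes, Lcn2, Serpina3n and Steap4 belong to the pan-reactive list (3 genes), Ggta1 to the A1 list (1 gene) and Tgm1, Ptx3, Sphk1, Cd109, Emp1 and Tm4sf1 to the A2 list (6 genes).

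The deposited unit was FPKM, the fragments of a gene divided by its transcript length in kilobases and by the mapped fragments of the library, which is scaled for transcript length and for depth. From the steps between the lowest values, the depth was estimated as 9.54 M mapped fragments in WT and 9.82 M in KO. These gave estimated fragments per gene and 95% intervals, which cover counting error alone, so an interval that leaves out 1 says that 2 libraries differ and not that 2 genotypes do. The knocked-out gene, Arrb1, was listed at 7.62 FPKM in WT but at 2.72 FPKM in KO (ratio 0.358, interval 0.301 to 0.424). Of 4 Y-linked genes looked up, none was listed in WT and all 4 were listed in KO with a sum of 8.44 FPKM. Sex and genotype cannot be told apart in these libraries.

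The cultures carried the markers of astrocytes. All 10 astrocyte markers were above 1 FPKM in both libraries, with Gfap, the intermediate filament protein of astrocytes, at 189 FPKM in WT against 192 in KO. Gfap was the highest of them, and the lowest was Slc1a2, at 2.60 FPKM in WT and 4.11 in KO. The markers of other cells were present as well, and 12 microglial genes summed to 1518 FPKM in WT but to 1147 in KO. Markers of pericytes and smooth muscle summed to 5464 FPKM in WT and 5160 in KO, mostly from Acta2 and Tagln. The astrocyte markers summed to 396 and 420 FPKM. The cultures were bulk samples, in which fewer cells of a type and less RNA per cell cannot be told apart.

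The reactive markers covered a wide range of levels, which was ordered alike in both cultures. Tm4sf1, Emp1 and Ptx3 were the most abundant, Cd109, Serpina3n and Ggta1 followed, Lcn2 and Sphk1 were lower, Steap4 was near 1 FPKM and Tgm1 was close to absent. In WT, every neighbour in this order differed beyond its counting interval. In KO, the intervals of 3 neighbouring pairs overlapped, namely Ptx3 with Cd109, Lcn2 with Sphk1 and Steap4 with Tgm1. In 8 of the 10 genes the level was at least 5 FPKM in both libraries. Together the 10 genes had 412 FPKM in the WT culture against 494 in the KO culture, most of it from Tm4sf1, Emp1 and Ptx3.

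**Figure D1:**
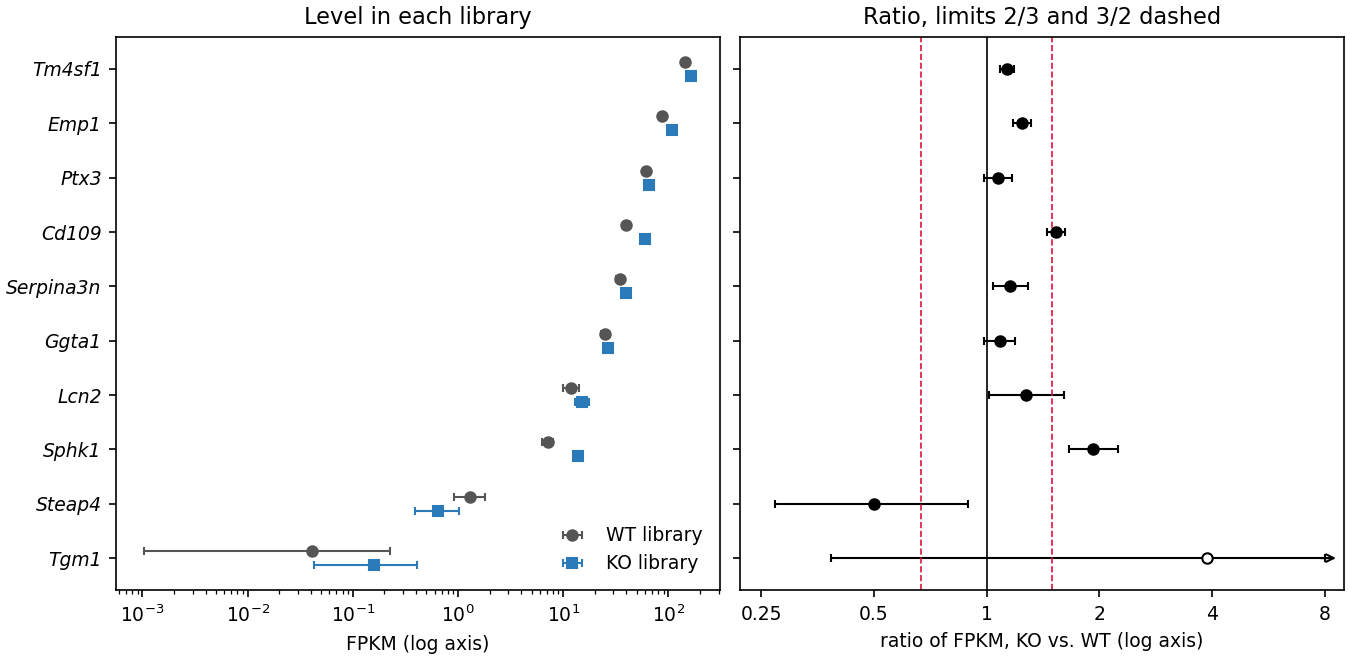
Level of the 10 reactive astrocyte marker genes in each library (left, FPKM on a log axis, WT as circles and KO as squares) and the ratio of KO vs. WT (right, log axis), with bars for 95% counting intervals and no replicates. Cd109 (1.53) and Sphk1 (1.92) lie above the limit of 3/2 and Steap4 (0.50) below the limit of 2/3, while the open circle of Tgm1 rests on about 1 fragment in WT and its interval runs beyond the axis.

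A change was called when the ratio of KO vs. WT was above 3/2 or below 2/3 and the gene reached 1 FPKM in at least one library. Tgm1 did not reach this minimum, so 9 of the 10 genes were analysed. Cd109 and Sphk1 were above 3/2 (2 of 9 genes, where 9.56% of all 12646 genes analysed were above it), and Steap4 was below 2/3 (1 of 9, where 8.28% of all genes were below it). The other 6 genes lay between the limits, and in 4 of them, Lcn2, Serpina3n, Emp1 and Tm4sf1, the counting interval left out 1. With the minimum raised to 5 FPKM, 2 of 8 genes were above 3/2 against a background of 6.81% of 9397 genes, and 0 of 8 were below 2/3 against 5.74%. The 12646 genes include 475 listed in 1 table only, which are past a limit because the missing value was set to 0. With at least 1 FPKM in both libraries, 750 of 11622 genes were above 3/2 and 622 were below 2/3. Of the marker genes, 2 of 8 were then above 3/2 and 0 below 2/3. The level was higher in KO in 8 of the 9 genes, and 53.0% of all analysed genes had a ratio over 1. The median log2 ratio was 0.21 for the marker genes and 0.02 for all genes analysed. With 1 library per genotype and 9 genes, these counts describe the libraries and were not tested.

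**Figure D2:**
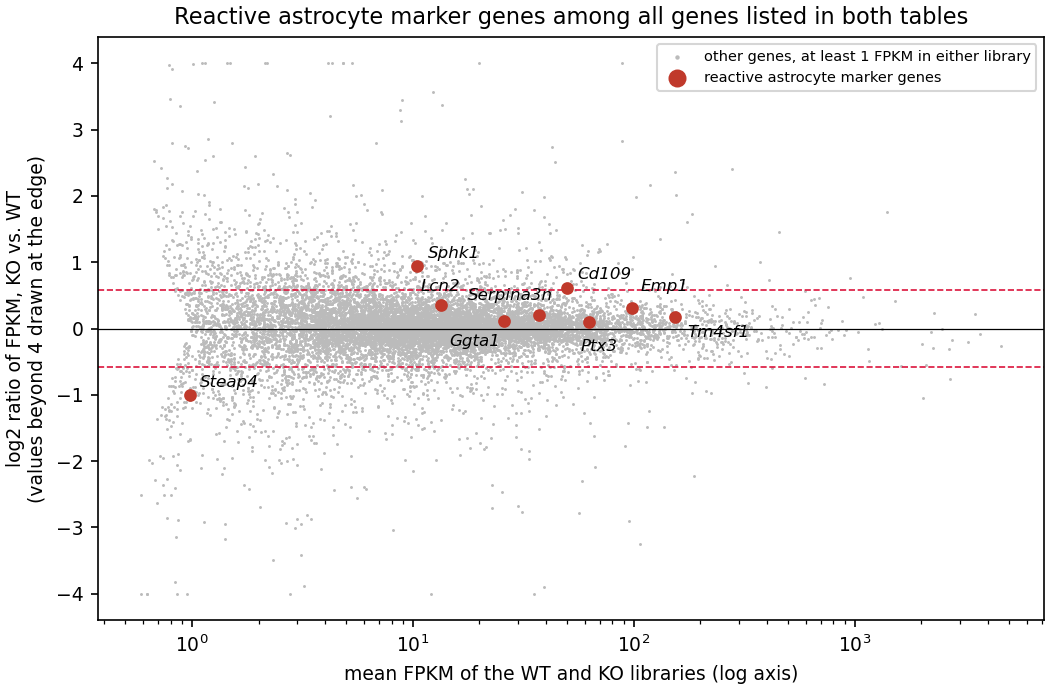
Log2 ratio of FPKM, KO vs. WT, against the mean FPKM of the libraries (log axis) for genes listed in both tables with at least 1 FPKM in either library, with the reactive astrocyte marker genes in red and the limits 2/3 and 3/2 dashed. Sphk1 and Cd109 lie above the upper line, Steap4 lies below the lower one among genes near 1 FPKM, where the grey points spread most widely, and the other 6 marker genes lie just above 0.

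Lcn2, Serpina3n and Ptx3 encode secreted proteins of the acute phase, and all 3 were slightly higher in KO. Lcn2 encodes lipocalin 2, a secreted protein that binds iron-loaded bacterial siderophores and is among the most strongly induced transcripts of reactive astrocytes. It had 11.8 FPKM in WT and 15.1 in KO, from about 136 and 178 fragments. The ratio of 1.28 (interval 1.01 to 1.61) was between the limits, and the interval nearly reached 1. In rank, Lcn2 was above 62.6% of the genes listed in WT but above 68.9% of those listed in KO. Its row (NCBI gene 16819) covered chr2:32240157-32243259 of mm9 in WT and ended at 32243277 in KO. Of its 3 binding partners, 2 were analysed and both were between the limits. Slc22a17, which has been described as a lipocalin 2 receptor, had 30.5 FPKM in WT against 28.7 in KO (ratio 0.941), and Lrp2, the endocytic receptor megalin, had 57.4 against 54.9 FPKM (ratio 0.957). Mmp9, a protease that lipocalin 2 protects from degradation, was listed in the WT table only, at 0.635 FPKM from about 18 fragments, and was not analysed because it was under the minimum of 1 FPKM.

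Serpina3n encodes a secreted inhibitor of serine proteases. Its row gave 34.5 FPKM for WT and 40.0 for KO (about 624 and 744 fragments, ratio 1.16, interval 1.04 to 1.29). This value cannot be assigned to Serpina3n alone. The row (NCBI gene 20716) spanned 286334 bases of chromosome 12 in WT and 301606 bases in KO, whereas the annotated gene spans 7601 bases (chr12:105644939-105652539). The WT span holds 13 annotated Serpina3 genes and pseudogenes, which are related genes lying side by side, and the KO span holds 14. Only 2 other Serpina3 genes had a row of their own, both in the KO table only, Serpina3c at 0.0670 FPKM and Serpina3h at 0.135 FPKM. With these rows added, the ratio was 1.16 as before.

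Ptx3 encodes the long pentraxin 3, a secreted pattern recognition protein that binds complement component C1q. It had 60.7 FPKM in WT and 64.9 in KO (about 1014 and 1117 fragments), and the ratio of 1.07 had an interval that included 1 (0.982 to 1.17). Its row (NCBI gene 19288, chr3:66023809-66029728) had the same bounds in both tables and lies within that of Veph1, which was low (0.147 FPKM in WT, 0.144 in KO). Ptx3 was the dominant pentraxin of these cells. The neuronal pentraxins Nptx1 (1.23 and 1.496 FPKM, ratio 1.22) and Nptx2 (3.39 and 3.78 FPKM, ratio 1.12) were at much lower levels, and so was Tnfaip6, a hyaluronan matrix protein that binds pentraxin 3 (1.98 and 1.99 FPKM, ratio 1.01). None of the pentraxin genes was past a limit.

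The surface proteins included the most abundant marker genes, and Cd109 was the one of them above 3/2. Cd109 encodes a protein held to the outer membrane by a lipid anchor, of the α2-macroglobulin family, which binds TGF-β and its receptors. Cd109 was listed at 39.2 FPKM for the WT culture and at 60.2 FPKM for the KO culture, from about 2129 and 3362 fragments. The log2 ratio was 0.62 (ratio 1.53, interval 1.45 to 1.62), so the ratio lay just above the limit and its interval reached below it. Its rank rose from above 88.1% of listed genes in WT to above 92.6% in KO. The row (NCBI gene 235505, chr9:78463353-78564067) had the same bounds in both tables. A2m, the secreted α2-macroglobulin, differed in the other direction but within the limits (7.32 FPKM in WT, 5.64 FPKM in KO, ratio 0.771, interval 0.650 to 0.913).

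Emp1 encodes a small protein that spans the membrane several times, related to the peripheral myelin protein Pmp22. It had 87.9 FPKM in WT and 109 in KO (about 2233 and 2856 fragments). The ratio of 1.24 (interval 1.18 to 1.31) was within the limits, although far from 1 on the scale of counting error. The members of the Emp family differed among themselves. Emp2 had a ratio of 1.46 (53.2 and 77.6 FPKM, interval 1.37 to 1.55) and Emp3 one of 0.684 (176 and 120 FPKM, interval 0.621 to 0.752). Pmp22 had a ratio of 0.996 (73.9 and 73.6 FPKM). All were between the limits, but the interval of Emp2 included 3/2 and that of Emp3 included 2/3. Tm4sf1 encodes another such membrane protein, known from endothelial and tumour cells, where it serves cell movement. It was the most abundant of the 10 genes, at 144 FPKM in WT and 163 in KO (about 3692 and 4309 fragments, ratio 1.13, interval 1.08 to 1.18). It was above 97.7% of the genes listed in WT and above 98.0% of those listed in KO. The row of Emp1 (NCBI gene 13730, chr6:135312949-135333191) was the same in both tables, and that of Tm4sf1 (NCBI gene 17112, chr3:57090986-57105904 in WT) ended at 57105914 in KO.

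Steap4 was the one marker gene with a lower level in KO. It encodes a metalloreductase of the cell surface and endosomes that reduces iron and copper for uptake. The level was 1.31 FPKM in WT against 0.652 in KO, from about 37 and 19 fragments. Steap4 was above 23.6% of the genes listed in WT and above 17.7% of those listed in KO. The ratio of 0.50 had a wide interval (0.271 to 0.891), which left out 1 but included the limit of 2/3. The row (NCBI gene 117167, chr5:7960472-7982213) was the same in both tables. Among its relatives, Steap2 differed more and from many more fragments. Steap2, also a metalloreductase, had 15.4 FPKM in WT against 5.61 in KO (ratio 0.364, interval 0.329 to 0.401), and its row had the same bounds in both tables. Steap1 (7.42 and 7.58 FPKM, ratio 1.02) and Steap3 (4.34 and 3.79 FPKM, ratio 0.873) were between the limits.

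Sphk1 had the highest ratio of the marker genes analysed. It encodes sphingosine kinase 1, which makes the lipid mediator sphingosine-1-phosphate (S1P). Sphk1 stood at 7.15 FPKM in the WT table and at 13.8 FPKM in the KO table, from about 266 and 526 fragments, a ratio of 1.92 (interval 1.66 to 2.24). It moved from the middle of the listed genes in WT (above 50.3%) to above 66.5% of them in KO. The bounds of its row (NCBI gene 20698) differed, with chr11:116392211-116397989 in WT and a start at 116391624 in KO, so that the row spanned 5779 bases in WT and 6366 bases in KO. The gene has 17 annotated transcripts, and a different use of them would change the length by which fragments are divided. The part of transcript choice in the ratio was not tested.

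None of the other genes of S1P metabolism and signaling that were analysed was above 3/2. Sphk2, the second sphingosine kinase, had 13.8 FPKM in WT against 11.5 in KO (ratio 0.839), in a row that overlaps that of Dbp (19.1 and 17.3 FPKM). Sgpl1, the lyase that breaks S1P down, had a ratio of 0.949 (65.6 and 62.3 FPKM), and Sgpp1, an S1P phosphatase, had one of 1.08 (11.0 and 11.96 FPKM). All S1P receptors with at least 1 FPKM had ratios below 1. S1pr1 was below the limit of 2/3 (11.1 and 7.31 FPKM, ratio 0.658, interval 0.549 to 0.789), whereas S1pr2 (13.03 and 10.7 FPKM, ratio 0.822) and S1pr3 (15.0 and 11.9 FPKM, ratio 0.791) were not. Of 7 genes of this list analysed, Sphk1 included, 1 was above 3/2 and 1 below 2/3, where 9.56% and 8.28% of all genes were.

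The other enzymes were Ggta1 and Tgm1. Ggta1 encodes the galactosyltransferase that adds terminal α-galactose to glycans. It was at 24.7 FPKM in WT and 26.8 in KO (about 810 and 904 fragments), and its ratio of 1.08 had an interval that included 1 (0.985 to 1.19). Gbgt1, a related glycosyltransferase, had 3.09 and 2.42 FPKM (ratio 0.782, interval 0.457 to 1.33). The row of Ggta1 (NCBI gene 14594) began at chr2:35255699 in both tables and ended at 35318180 in WT and 35318155 in KO.

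Tgm1 encodes transglutaminase 1, which cross-links proteins of the cornified envelope of skin. It was listed at 0.0406 FPKM in WT and at 0.158 in KO, values that correspond to about 1 and 4 fragments. The ratio of 3.89 had a counting interval from 0.385 to 192, and a difference was not detectable at this depth. Its row (NCBI gene 21816, chr14:56318846-56332329) was the same in both tables. Transglutaminase transcripts of these cells came mostly from Tgm2, the widely expressed tissue transglutaminase, at 28.6 FPKM in WT against 23.8 in KO (ratio 0.830).

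Promoters of the marker genes were searched for the motifs of STAT, NF-κB and AP-1 factors, through which reactive genes are known to be induced. Each promoter of the RefSeq table (GRCm38.p6) holds 250 bases before and 50 bases after an annotated start site, and each was found at 1 place in the mm9 genome by its sequence. The 9 marker genes other than Cd109 had an entry, so Cd109, although past a limit, could not be searched. The letters searched on both strands were TTCNNNGAA (GAS, the STAT motif), TGANTCA (AP-1) and the NF-κB motif. All of these are short. The GAS letters occurred in 8.30% of 32851 promoters, the AP-1 letters in 7.81% and the NF-κB motif in 8.46%. Sphk1 has 5 promoters in the table and Emp1 has 2. Sphk1 and Steap4 were past a limit, whereas Emp1 was between the limits and held GAS and AP-1 letters. The first 2 of Sphk1, the first of Emp1 and that of Steap4 are shown 5′ to 3′ on the plus strand with the matches in capitals.
Sphk1, first start, chr11:116392164-116392463: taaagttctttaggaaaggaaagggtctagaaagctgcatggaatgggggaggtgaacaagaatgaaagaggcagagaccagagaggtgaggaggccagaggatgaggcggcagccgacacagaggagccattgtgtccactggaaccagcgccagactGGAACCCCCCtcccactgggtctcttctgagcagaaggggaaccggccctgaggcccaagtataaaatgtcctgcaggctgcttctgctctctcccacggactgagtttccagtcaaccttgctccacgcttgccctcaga
Sphk1, second start, chr11:116392901-116393200: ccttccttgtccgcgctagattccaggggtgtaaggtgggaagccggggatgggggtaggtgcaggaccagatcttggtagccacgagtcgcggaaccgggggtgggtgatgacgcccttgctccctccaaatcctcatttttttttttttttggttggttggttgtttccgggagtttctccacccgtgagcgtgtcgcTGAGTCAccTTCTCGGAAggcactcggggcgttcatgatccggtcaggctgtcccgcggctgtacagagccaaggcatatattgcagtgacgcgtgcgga
Steap4, chr5:7960222-7960521: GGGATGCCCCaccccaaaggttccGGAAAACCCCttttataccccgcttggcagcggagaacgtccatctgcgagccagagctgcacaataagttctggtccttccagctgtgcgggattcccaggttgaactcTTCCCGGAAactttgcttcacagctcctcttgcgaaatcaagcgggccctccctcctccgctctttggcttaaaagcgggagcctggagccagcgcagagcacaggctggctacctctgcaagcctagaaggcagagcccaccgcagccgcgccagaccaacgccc
Emp1, first start, chr6:135312699-135312998: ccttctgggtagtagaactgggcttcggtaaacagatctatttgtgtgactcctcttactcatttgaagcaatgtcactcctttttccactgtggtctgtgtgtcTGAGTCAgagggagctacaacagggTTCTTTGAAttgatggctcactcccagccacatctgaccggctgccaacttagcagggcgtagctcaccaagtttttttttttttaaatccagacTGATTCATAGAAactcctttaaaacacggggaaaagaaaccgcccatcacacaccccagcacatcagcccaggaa

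Counted from the start site as 0, the first Sphk1 promoter held an NF-κB match from -91 to -82, and the second held AP-1 letters from -50 to -44 next to GAS letters from -41 to -33. The third Sphk1 promoter, not shown, overlaps the second and holds the same AP-1 and GAS letters, together with an NF-κB match from 40 to 49 after its own start site. The other 2 Sphk1 promoters and the second Emp1 promoter held no match. The row of the WT table began 203 bases upstream of the first start site and the KO row 790 bases upstream of it, so both rows took in the starts shown. Steap4, whose level was lower in KO, held GAS letters from -116 to -108 and NF-κB matches from -250 to -241 and from -226 to -217. The rows of Steap4 and Emp1 began exactly at the start site of the promoter shown. Emp1 held AP-1 letters from -145 to -139 and GAS letters from -120 to -112, and near the start an AP-1 match (-25 to -19) that overlaps a GAS match (-22 to -14).

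Over all 9 marker genes with a promoter, GAS letters were found in 4 (Steap4, Emp1, Sphk1 and Tgm1), AP-1 letters in 2 (Emp1 and Sphk1) and the NF-κB motif in 4 (Tm4sf1, Ptx3, Steap4 and Sphk1). Counted by gene, the shares over all 27025 genes of the table were 9.55% for GAS, 8.97% for AP-1 and 9.55% for NF-κB. Genes with several promoters, as Sphk1, have more letters in which to find a match. The genes with a match were thus on both sides of the limits and between them, with Sphk1 above 3/2 and Steap4 below 2/3.

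The lists from which the marker genes come differed in their counts past the limits. Of 13 pan-reactive genes, all analysed, none was above 3/2 and 2 were below 2/3 (9.56% and 8.28% of all genes analysed), with a median log2 ratio of 0.04. The 2 were Steap4 and Cxcl10, an interferon-induced chemokine, with 2.67 FPKM in WT against 0.984 in KO (ratio 0.368, interval 0.151 to 0.821). The row of Cxcl10 lies within that of Art3, a different gene with 3.59 FPKM in WT and 6.72 in KO. With both rows summed the ratio was 1.23. This sum includes the transcripts of Art3 itself and cannot decide the direction of Cxcl10. Vim, the intermediate filament protein vimentin, was the highest gene of the list at 3224 FPKM in WT against 3745 in KO (ratio 1.16). Without the marker genes, 10 pan-reactive genes were left, of which 1 was below 2/3.

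Of 12 A1 genes, 10 were analysed, since H2-T23 was not analysed here and Iigp1 was under the minimum (0.832 FPKM in WT, 0.311 in KO). Of these, 1 was above 3/2 and 3 were below 2/3 (9.56% and 8.28% of all genes analysed), with a median log2 ratio of -0.06. The 3 were Gbp2, an interferon-induced GTPase (7.11 and 3.42 FPKM, ratio 0.480), Fbln5, an extracellular matrix protein (38.2 and 23.1 FPKM, ratio 0.605), and H2-D1, a classical MHC class I chain and the highest gene of the list (123 and 80.9 FPKM, ratio 0.656). The row of H2-D1 spanned 211470 bases and so takes in neighbouring MHC genes. The row of Gbp2 spanned 77957 bases in WT and 43162 bases in KO, and with the KO row of Gbp3 added its ratio was 0.591. Amigo2, an adhesion protein, was above 3/2 (1.95 and 3.27 FPKM, ratio 1.68, interval 1.17 to 2.43). Its row overlaps that of Pced1b, a different gene with 2.43 FPKM in WT and 1.75 in KO. Summed, the rows had a ratio of 1.15, which includes the transcripts of Pced1b itself and cannot decide the ratio of Amigo2. Ggta1 was thus in a list whose other analysed members had a median log2 ratio of -0.08.

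Of 12 A2 genes, 10 were analysed, and 3 of them, Clcf1, Sphk1 and Cd109, were above 3/2 and none below 2/3, beside the same 9.56% and 8.28% of all genes. The median log2 ratio was 0.39. Besides Tgm1, Slc10a6 was under the minimum and was listed in the KO table only (0.0521 FPKM). Clcf1 encodes a cytokine of the IL-6 family and had 42.3 FPKM in WT against 96.8 in KO (ratio 2.29, interval 2.15 to 2.44), in rows of 9085 and 8224 bases. Without the marker genes, 5 A2 genes were analysed, with 1 above 3/2 and a median log2 ratio of 0.47. S100a10, the highest gene of the list, had a ratio of 0.885 (403 and 356 FPKM). The 5 analysed marker genes of this list all had ratios over 1. Of the 5 others, 3 were over 1 as well, namely Clcf1, Ptgs2 (110 and 152 FPKM, ratio 1.38) and B3gnt5 (1.23 and 1.75 FPKM, ratio 1.42). The other 2 were below 1, S100a10 and the lipopolysaccharide co-receptor Cd14 (78.5 and 62.4 FPKM, ratio 0.795). The difference between the lists was not tested.

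**Figure D3:**
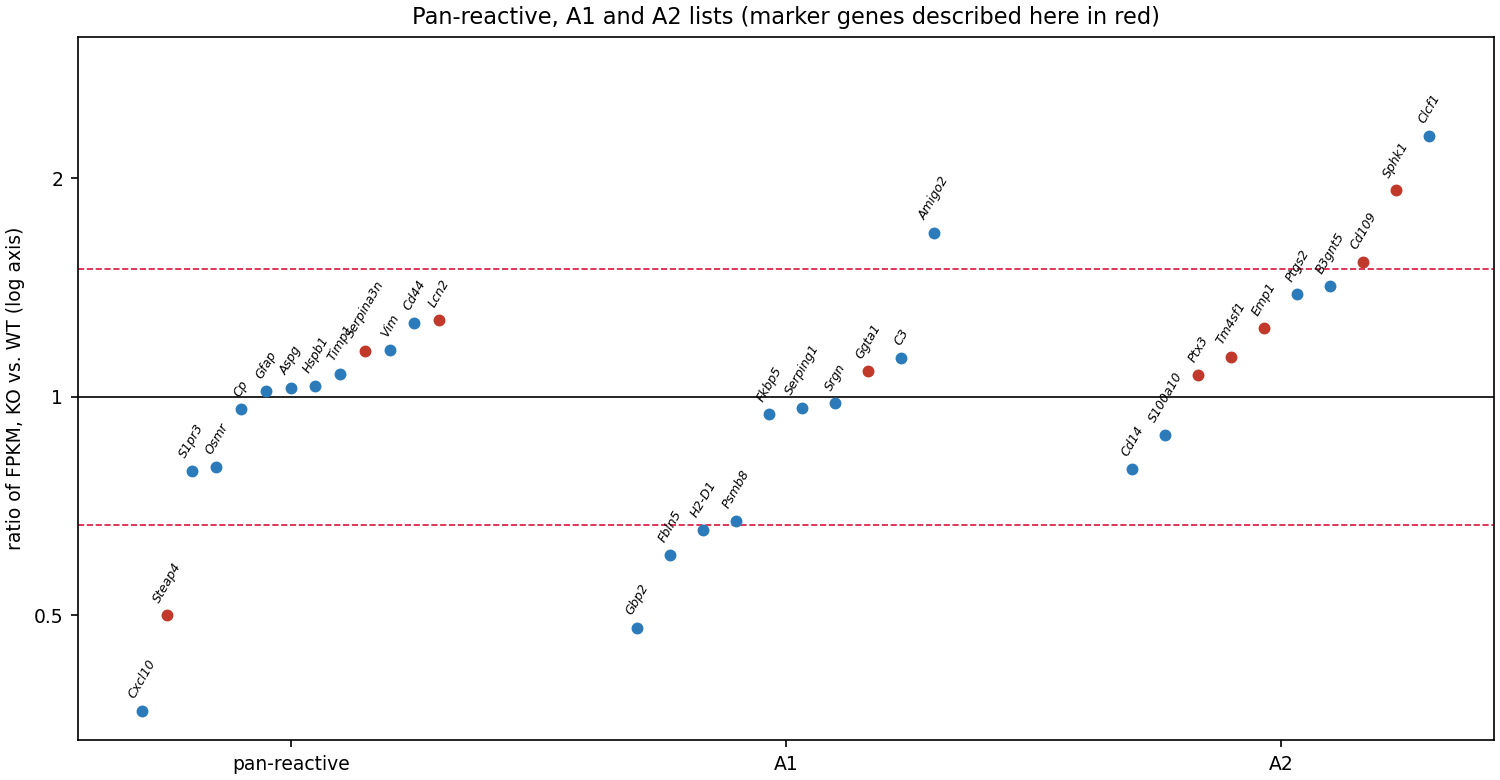
Ratio of FPKM, KO vs. WT (log axis), of each analysed gene of the pan-reactive, A1 and A2 lists, with the marker genes described here in red, the other genes in blue and the limits 2/3 and 3/2 dashed. The A2 list has 3 genes above the upper line (Clcf1, Sphk1 and Cd109) and none below the lower one, and the A1 list has 1 above (Amigo2) and 3 below (Gbp2, Fbln5 and H2-D1).

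Most genes for signals that induce these markers lay between the limits, as did most genes at large. The list held 24 genes for inducing cytokines, their receptors and the signaling proteins and transcription factors downstream. It included C1qa, C1qb and C1qc, complement chains that are also counted here as microglial markers. Of the 24 genes, 22 were analysed, 1 was above 3/2 and 1 was below 2/3, where 9.56% and 8.28% of all genes were. The median log2 ratio was -0.18, with the C1q chains included. Il1rap, the accessory chain of the IL-1 receptor, was above the limit (9.20 and 14.2 FPKM, ratio 1.54, interval 1.36 to 1.76). Lifr, the receptor for leukemia inhibitory factor, was below it (2.06 and 1.16 FPKM, ratio 0.563, interval 0.440 to 0.718). The highest gene of the list was C1qc, a chain of the complement component C1q that is made by microglia, at 278 FPKM in WT against 208 in KO (ratio 0.748).

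Markers of other cell types also differed between the cultures. Over all genes analysed, 9.56% were above 3/2, 8.28% were below 2/3 and 53.0% had a ratio over 1. For microglia, which release inducers of astrocyte reactivity, 11 of 12 markers had a ratio below 1 (range 0.645 to 1.05) and the sum was 0.756 times that of WT, with Cd68 alone below 2/3. For fibroblasts and meningeal cells, 5 of 6 analysed markers (Col1a1, Col1a2, Col3a1, Dcn and Fbln1) were below 2/3, Pdgfra was above 3/2 and the sum over 8 genes went from 621 to 327 FPKM. Skeletal muscle markers, which are unusual for brain cultures, were higher in KO, with 4 of 5 analysed above 3/2 and sums of 36.4 and 99.4 FPKM. For endothelium, in which Tm4sf1 and Cd109 are also known, 9 of 10 markers were analysed, with 2 above 3/2, 1 below 2/3 and sums of 95.6 and 95.2 FPKM.

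Of 5 analysed markers of pericytes and smooth muscle, 1 (Rgs5) was below 2/3, and the sums were 5464 and 5160 FPKM. Acta2, the smooth muscle actin that cultured cells often express, had 2478 FPKM in WT against 2469 in KO. Of 5 analysed markers of the oligodendrocyte lineage, Olig2 and Sox10 were above 3/2 and the sums were 46.9 and 57.2 FPKM. Of 8 neuronal markers, only Tubb3 reached 1 FPKM. Among the astrocyte markers themselves, 4 of 10 were above 3/2 (Aldoc, Aqp4, S100b and Slc1a2), none was below 2/3 and the sums were 396 and 420 FPKM. Beside these counts, 9.56% of all genes analysed were above 3/2 and 8.28% were below 2/3. The part of the cell mixture in the levels of Sphk1, Cd109, Steap4 and the other marker genes was not tested.

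**Figure D4:**
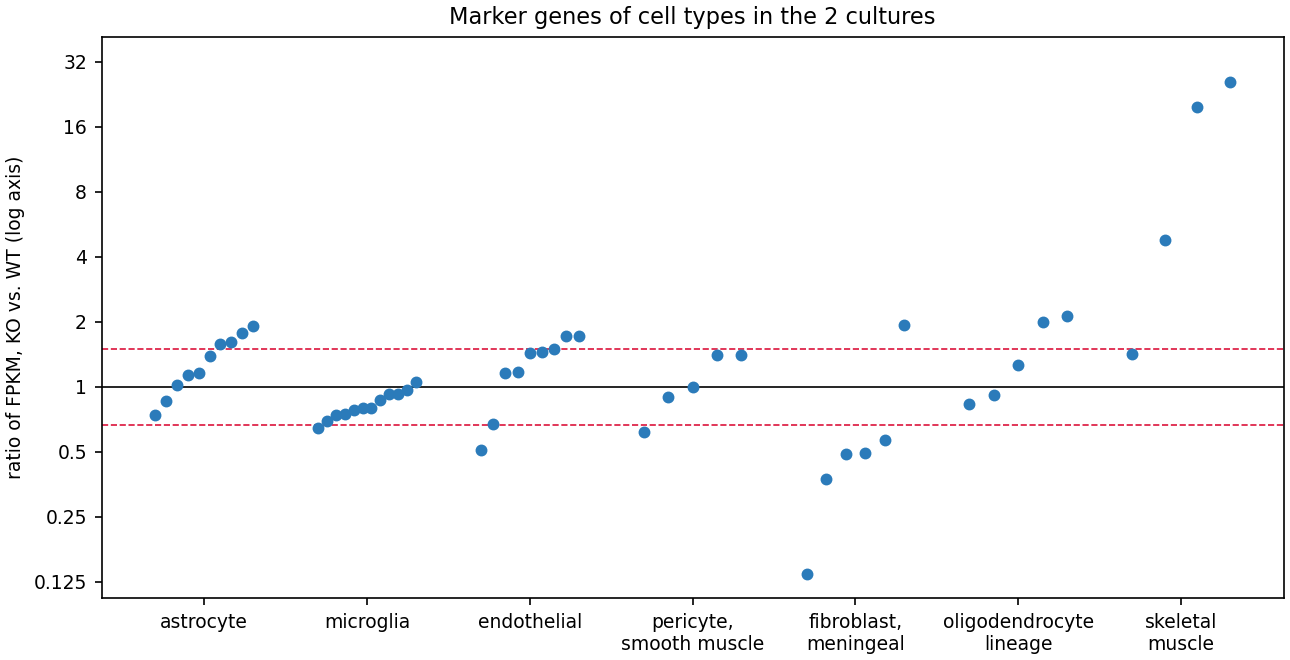
Ratio of FPKM, KO vs. WT (log axis), of each marker gene of 7 cell types that was analysed and listed in both tables, with the limits 2/3 and 3/2 dashed and 1 point per gene. Microglial markers lie mostly just below 1, fibroblast and meningeal markers mostly below the lower line, and astrocyte markers mostly above 1, while skeletal muscle markers reach the highest ratios.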

How the data were processed

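Gene expression values came from RNA sequencing of cultured DG astrocytes, 1 library per genotype, which the labels assign to WT and KO. The authors aligned read pairs of 100 bases to mm9 with TopHat (version 1.4.0 per the submitters' processing notes), ran Cufflinks (version and annotation not given in the sources used here) and deposited 1 FPKM value per gene with its locus. The values are thus normalized for transcript length and depth. Reads that match several genes are divided by Cufflinks, which can shift values between near-identical or overlapping genes.

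The tables were joined by symbol. Where rows shared a symbol the highest was kept, and a gene missing from one table was set to 0 there. Ratios of KO vs. WT were formed without a pseudocount, with the limits 3/2 and 2/3 and a minimum of 1 FPKM in either library. List medians used log2((KO + 0.1)/(WT + 0.1)). Depth was estimated from genes below 0.15 FPKM with 1 transcript longer than 1000 bases (425 genes in WT, 448 in KO), of which 68.5% and 68.3% lay within 5% of 1, 2 or 3 fragments after 170 bases were taken off the length. Fragments per gene used the longest GENCODE transcript, and 95% intervals were exact (Poisson for levels, Clopper-Pearson for ratios). Expression of a shorter transcript would widen them, and fragments amplified by PCR are not independent molecules. Loci are printed 1-based.

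The marker genes and gene lists were chosen with earlier results of these data known. The rule for naming took all 10 marker genes and the genes whose rows overlap theirs. From the reactive and inducer lists it took the genes past a limit and the highest gene. It also took every relative or partner with at least 1 FPKM. Cd14, Ptgs2, B3gnt5, Iigp1, Slc10a6 and Mmp9 fall outside this rule and were named after their values were seen. The computation was tested on simulated data. Tools were Python 3.11.15 with scipy 1.17.1, pandas 2.3.3, numpy 2.4.6 and, for plots, matplotlib 3.10.9. Alternatives were other minimums, pseudocounts, scalings and limits, shared symbols summed and overlapping loci summed.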

Additional observations from a re-analysis of the deposited data

How the results depend on the processing

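No paired analysis was possible because each genotype has 1 library and the labels carry no replicate numbers, and no library could be left out for the same reason. The ratios of the 10 marker genes under 7 alternatives (70 ratios) all stayed within their counting intervals and on their side of 1. Most of these settings could move a ratio only little. A pseudocount cannot carry a ratio across 1, and summing shared symbols changed no marker gene. Summing overlapping loci changed only Serpina3n and Ptx3, and the intervals of Tgm1 and Steap4 are wide. Cd109 ranged from 1.52 to 1.54, Sphk1 from 1.81 to 1.93, Steap4 from 0.493 to 0.717 and Tgm1 from 1.11 to 3.90. The count of marker genes above 3/2 was 3 with a minimum of 0.1 FPKM or with no minimum (Tgm1 added) and 0 with limits of 2 and 1/2. The count below 2/3 was 0 with a minimum of 5 FPKM, with a minimum of 1 FPKM in both libraries and with a pseudocount of 1, each of which takes Steap4 out. Of all genes, 2256 were past the limits, against 3969 with a minimum of 0.1 FPKM, 1179 with 5 FPKM, 1372 with 1 FPKM in both, 4830 with no minimum and 1163 with limits of 2 and 1/2. Pan-reactive genes past the limits numbered 0 with a minimum of 5 FPKM and with 1 FPKM in both, and 1 with a pseudocount of 1 (Cxcl10) or with overlapping loci summed (Steap4). A1 genes past them numbered 1 with limits of 2 and 1/2 (Gbp2), and A2 genes 1 with those limits (Clcf1) and 5 with no minimum. Scaling moved all ratios by about 1% (factors 0.997, 1.012 and 1.012). Depth limited Tgm1 and Steap4, which rest on few fragments.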
